A study of Mus musculus with 4 samples.

Results

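The spots described here are upper hair follicle (HF) spots of mouse dorsal skin, split by whether *Krox20* RNA was found in them. *Krox20* is listed as *Egr2* in the files. Expression was measured on Visium slides, on which a tissue section gives up its RNA to barcoded spots, and each spot covers a small area with more than 1 cell, often of more than 1 type. Of 6420 spots over tissue, 6411 held at least 250 genes and were kept. In each slice, the top 15% of spots by the mean of ln(1 + 10000 × UMIs/total UMIs) over *Atp12a*, *Car6*, *Fxyd4*, *Slc5a5*, *Trpv6* and *Atp6v1c2* were taken as upper follicle spots, which gave 247, 263, 233 and 218 spots (961 in all). The spots were thus chosen by measured values of these genes, and the split below by the measured *Krox20* UMIs. A UMI (unique molecular identifier) marks 1 captured RNA molecule. Each upper follicle spot with at least 5500 UMIs was thinned at random to 5500, so that finding *Krox20* did not depend on the depth of the spot, and 10, 34, 51 and 13 shallower spots were left out. Of the 853 thinned spots, 354 held at least 1 *Krox20* UMI and are called *Krox20*-positive. The other 499 held 0 and are called *Krox20*-negative. *Krox20* and the 6 score genes chose the spots, so their levels are described and not tested.

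The mice had the genotype *Krox20-CreERT; R26-tdTomato*, received 4-hydroxytamoxifen at P2 and were P38 when the skin was taken. In these mice *CreERT* was knocked in at *Krox20* behind a P2A linker, and the tdTomato reporter is switched on by recombination. There was no other genotype, treatment or age, and every comparison is between spots of the same sections. The 4 slices (replicates 1 to 4) each held 1 section from each of the same 3 mice, so they are technical replicates, and the SD between slices and the p-values do not cover differences between mice. The study left 1 section out for distortion, and the spots that belong to it are not given in the sources used here, so spots of all 4 slices were used. Slices held between 19393026 and 26910422 UMIs. The slices shared 750 of 2485 barcodes, which on these slides name positions of the array and not cells.

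*Krox20* encodes a zinc finger transcription factor of the EGR family, known for its role in myelination by Schwann cells and in hindbrain patterning. The EGR factors bind GC-rich sites, and the corepressors NAB1 and NAB2 bind to them. In skin, the upper HF comprises the infundibulum, which opens to the skin surface, and the junctional zone below it, where the sebaceous gland joins and where *Lrig1*, *Plet1* and *Lgr6* mark stem and progenitor cells. The comparison of *Krox20*-positive and *Krox20*-negative spots asks which other genes, if any, accompany a *Krox20* UMI within this one region.

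The name of the region was checked against genes outside the score. *Cst6*, a cysteine protease inhibitor of the infundibulum and the cornified layers, stood at 17067 ± 1023 CPM (UMIs of a gene per 1000000 UMIs; mean ± SD, *n* = 4 slices) in upper follicle spots and at 1915 ± 258 CPM in all other kept spots. For *Plet1*, a surface protein of the junctional zone, the levels were 858 ± 14.7 and 75.6 ± 7.95 CPM. *Krt79*, a keratin of the infundibulum and sebaceous duct, had 868 ± 119 and 198 ± 11.7 CPM. The spots also held other tissue, since the collagen gene *Col1a1* reached 7041 ± 1134 CPM in them and 2456 ± 535 CPM elsewhere, and the sebocyte gene *Scd1* reached 1143 ± 203 and 487 ± 36.3 CPM. The score of the last spot inside the limit was 1.138, 1.173, 1.194 and 1.160 in the 4 slices, and that of the first spot outside was 1.138, 1.170, 1.190 and 1.160.

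The share of upper follicle spots with a *Krox20* UMI was nearly the same in every slice. It was 39.7% (exact 95% binomial confidence interval 33.4% to 46.2%) in replicate 1, 39.7% (33.4% to 46.4%) in replicate 2, 41.8% (34.5% to 49.3%) in replicate 3 and 45.4% (38.4% to 52.4%) in replicate 4. The mean was 41.6% ± 2.67 (SD, *n* = 4), and these intervals cover counting error only. Most positive spots rested on a single molecule: 275 spots held 1 *Krox20* UMI, 61 held 2, 18 held 3 or more, and the highest count was 5. Of the negative spots, 60, 50, 38 and 53 in the 4 slices had held a *Krox20* UMI before thinning. Positive and negative spots were found side by side along the follicles of all slices, as the map of the spots shows.

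**Figure D1:**
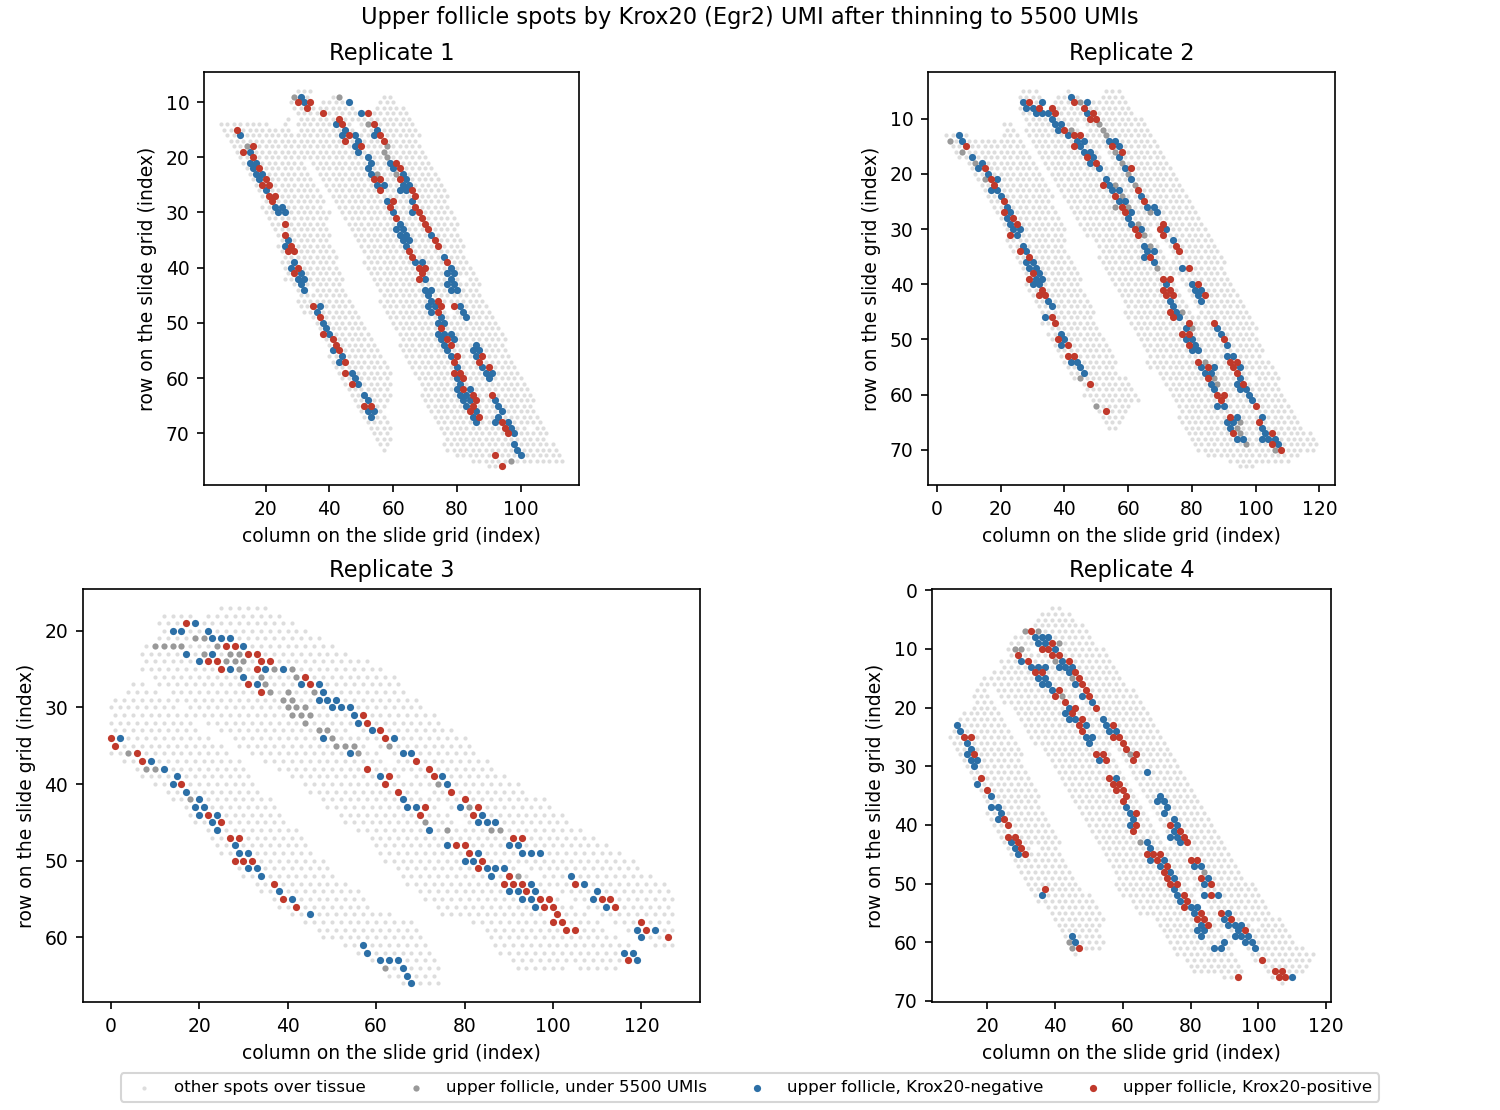
Position of each spot over tissue on the slide grid (column and row index) in the 4 slices. Red points are the 354 *Krox20*-positive and blue points the 499 *Krox20*-negative upper follicle spots; dark grey points are upper follicle spots with under 5500 UMIs and light grey points the other spots. Both classes lie along the same bands of follicles in every slice.

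The spread of *Krox20* UMIs over spots was close to that of random sampling from 1 common level per slice, a Poisson distribution, whose variance equals its mean. The variance divided by the mean was 0.981, 0.953, 0.878 and 1.17 in the 4 slices, with a mean of 0.995 ± 0.123. A Poisson distribution with each slice's mean would leave 60.3%, 61.1%, 60.7% and 53.3% of spots without a UMI, and 60.3%, 60.3%, 58.2% and 54.6% were without one. It would put 9.21%, 8.82%, 9.02% and 13.2% of spots at 2 or more UMIs, and 9.70%, 8.30%, 7.14% and 11.7% were there. These are descriptions of the counts that chose the classes, and no test was made of them.

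The UMIs set aside by thinning were not used for the split, and in them *Krox20* stood at nearly the same level in both classes. *Krox20*-positive spots had 81.5, 110, 80.3 and 101 CPM in replicates 1 to 4. *Krox20*-negative spots had 79.1, 75.6, 90.4 and 106 CPM. The groups overlapped, and the positive spots were higher in 2 of 4 slices. The means were 93.3 ± 14.8 and 87.7 ± 13.6 CPM, a difference of 0.09 ± 0.32 on the log2 scale (two-sided exact permutation by sign flips over 4 slices, *p* = 0.875; 4 slices allow no *p* below about 0.13). Over all slices, 216 of 2315629 set-aside UMIs in positive spots and 291 of 3369803 in negative spots were from *Krox20*, a ratio of 1.08 with an exact 95% interval of 0.902 to 1.29 for counting error alone. In 5 other random draws of the thinning the log2 ratio lay between -0.07 and 0.10.

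**Figure D2:**
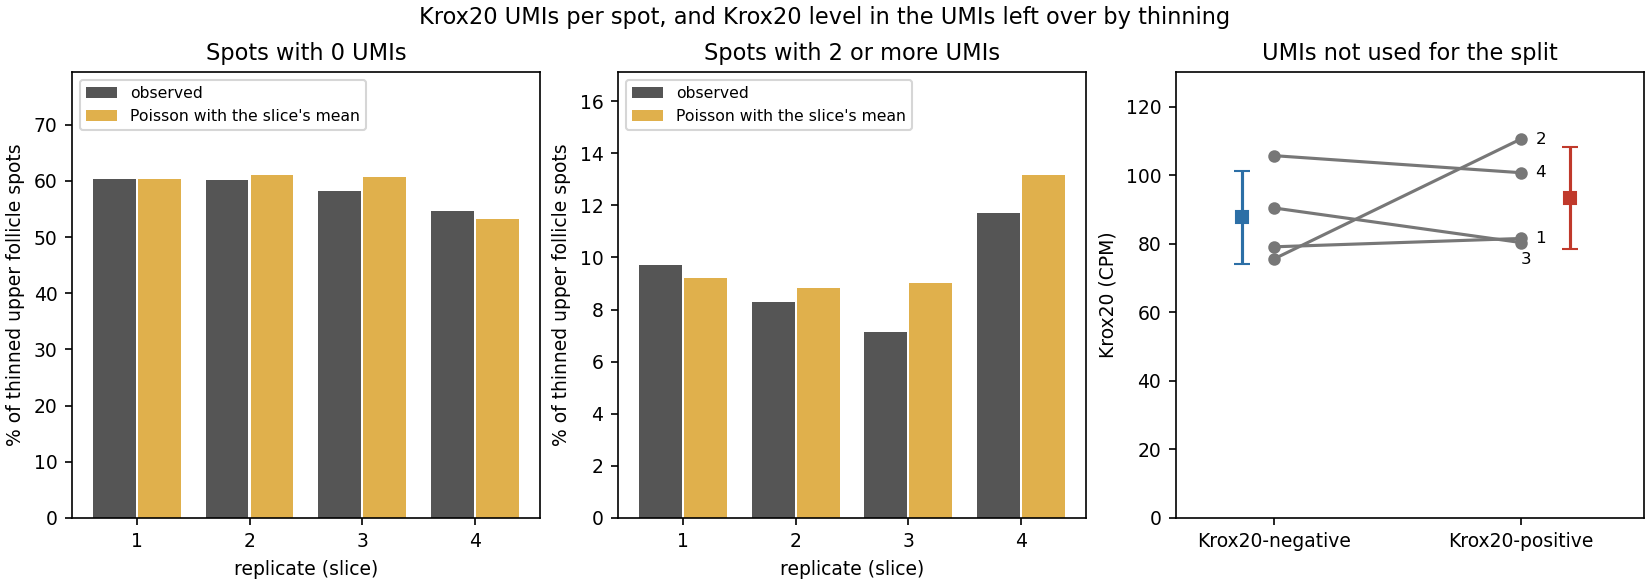
Left and middle, the share of thinned upper follicle spots with 0 and with 2 or more *Krox20* UMIs per slice (dark bars), beside the share under a Poisson distribution with the slice's mean (yellow bars). Right, *Krox20* level in CPM in the set-aside UMIs, with 1 line per slice and squares for the mean ± SD of 4 slices (87.7 and 93.3 CPM); 2 lines rise and 2 fall.

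Nor did the surroundings of the classes differ in *Krox20* beyond the spread between slices. The spots next to a positive spot held 72.2 ± 11.4 CPM of *Krox20* and those next to a negative spot 75.8 ± 10.7 CPM, a log2 ratio of -0.07 ± 0.15 that was above 0 in 1 of 4 slices (exact sign-flip permutation test, *p* = 0.625). On average, 48.6% and 49.1% of these neighbours were upper follicle spots themselves. Their *Krox20* UMIs include those that made the split, so this first ratio is not independent of it. Among neighbours that were not upper follicle spots the levels were 55.1 ± 8.01 and 52.6 ± 9.74 CPM, a log2 ratio of 0.07 ± 0.11 that was above 0 in 3 of 4 slices (exact *p* = 0.375). Positive spots lay 1.49 ± 0.0337 steps of the spot grid from the nearest epidermis-rich spot and negative spots 1.52 ± 0.0750 steps, a difference of -0.02 ± 0.04 steps (exact *p* = 0.375). With 4 slices none of these tests could reach below about 0.13, and a *p* above a threshold does not show that the classes are alike.

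Positive spots scored higher as upper follicle, which is described without a test because the score chose the spots. The median score of positive spots was 1.57, 1.55, 1.54 and 1.66 in replicates 1 to 4, and that of negative spots was 1.499, 1.517, 1.449 and 1.503, so it was higher in positive spots in each slice. In the third of spots with the highest score, 44.3%, 45.5%, 50.8% and 59.4% were positive. The shares were 34.2%, 32.9%, 41.7% and 38.2% in the middle and 40.5%, 40.8%, 32.8% and 38.2% in the lowest part, so the share did not rise steadily with the score in every slice. Among the score genes, *Car6*, which encodes a secreted carbonic anhydrase, had 3731 ± 268 CPM in positive and 3355 ± 204 CPM in negative spots, and *Atp12a*, a proton pump subunit, had 975 ± 99.4 and 880 ± 61.6 CPM. *Fxyd4* (353 ± 38.4 and 320 ± 17.0 CPM) and the iodide transporter gene *Slc5a5* (119 ± 18.4 and 98.4 ± 19.9 CPM) stood higher in the positive mean too, whereas the calcium channel gene *Trpv6* (218 ± 27.0 and 217 ± 41.0 CPM) and *Atp6v1c2* (204 ± 7.04 and 204 ± 26.4 CPM), a subunit of the vacuolar proton pump, stood level. Total depth did not run with the classes in one direction: median UMIs per spot before thinning were 12786, 10410, 10001 and 10586 in positive and 13026, 10671, 9920.5 and 11274.5 in negative spots.

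Across genes, few differences passed the threshold, and all were small. UMIs were summed per slice and class, and 6656 genes were tested with the edgeR quasi-likelihood test with the slice as a block, without *Krox20* and the score genes. At an adjusted *p* under 0.05, 4 genes were higher in *Krox20*-positive spots (0.0601% of genes tested) and 6 were lower (0.0901%), 0.15% in both directions. The 10 genes differed by 1.11-fold to 1.36-fold, and 9 of them were among the 276 genes with a mean of at least 500 CPM. At an unadjusted *p* under 0.05 there were 386 genes (5.8%), 169 higher and 217 lower. Without regard to any *p*, 433 genes (6.51%) were higher and 441 (6.63%) were lower in positive spots in 4 of 4 slices, and the median log2 fold change of all genes was 0.00. Without the slice as a block, 0 genes passed in edgeR (217 at an unadjusted *p* under 0.05), and DESeq2 with the slice as a term called *Col1a1* alone.

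**Figure D3:**
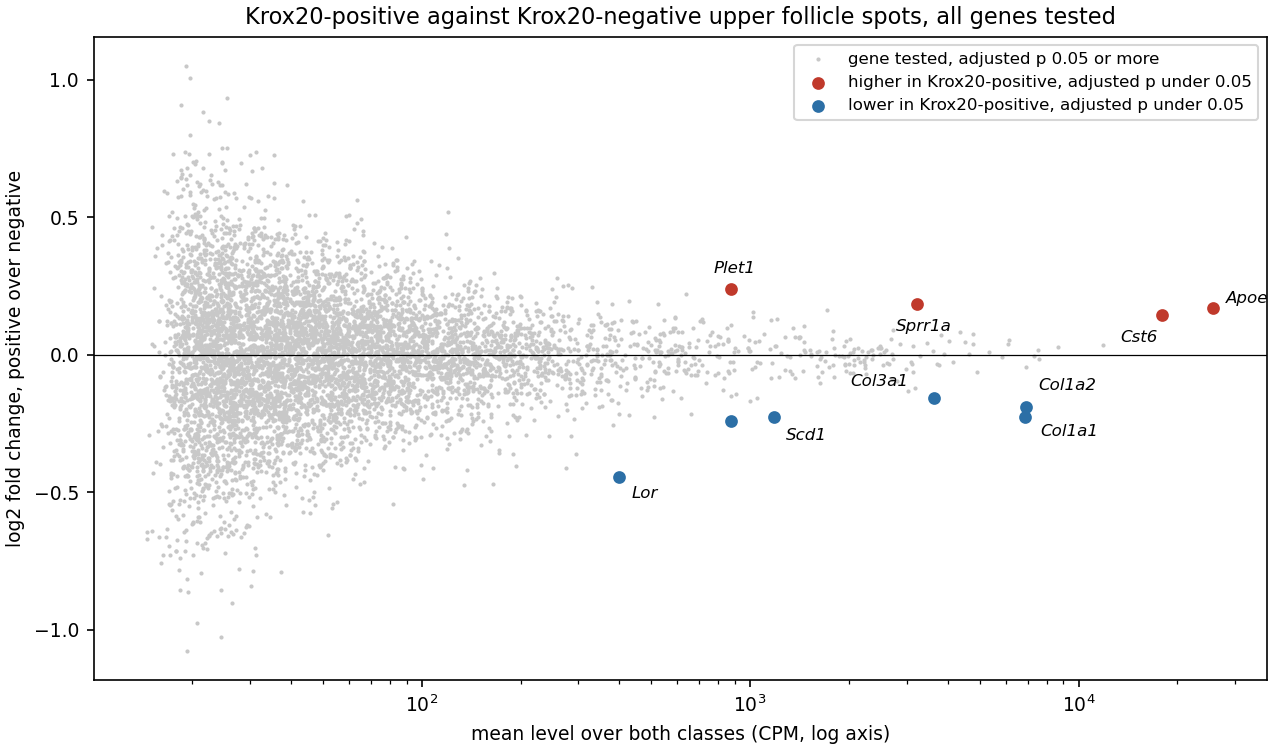
Log2 fold change of *Krox20*-positive over *Krox20*-negative spots against the mean level in CPM (log axis) for the 6656 genes tested with edgeR. The 4 red and 6 blue points are the genes at an adjusted *p* under 0.05, all but *Lor* at more than 500 CPM, and the grey cloud of other genes widens as the level falls.

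The 4 higher genes all had higher means in upper follicle spots than in the other kept spots. This does not set them apart, since *Col1a1* and *Scd1*, which were lower in positive spots, did too. *Plet1* had 923, 983, 945 and 927 CPM in positive and 774, 880, 750 and 795 CPM in negative spots. The lowest positive value lay above the highest negative one, so the classes did not overlap. Its log2 fold change of 0.24 (SE 0.0492, edgeR adjusted *p* = 0.0207) was the largest of the 4. *Cst6* had 21381, 17622, 18232 and 17988 CPM in positive and 18320, 15756, 17384 and 16623 CPM in negative spots. It was higher within each slice although the classes overlapped across slices, with a log2 fold change of 0.14 (SE 0.0243, edgeR adjusted *p* = 0.00112).

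*Sprr1a*, which encodes a precursor protein of the cornified envelope, had 4344, 3031, 2947 and 3367 CPM in positive and 3846, 2664, 2527 and 3028 CPM in negative spots. Replicate 1 was highest in both classes, and the log2 fold change was 0.18 (SE 0.0308, edgeR adjusted *p* = 0.00112). *Apoe*, the gene of a lipid-carrying apolipoprotein, had 24696, 25293, 29577 and 29586 CPM in positive and 22381, 24519, 24875 and 25002 CPM in negative spots. The gap was smallest in replicate 2, and the log2 fold change was 0.17 (SE 0.0270, edgeR adjusted *p* = 0.000557). Both genes were much less abundant outside the region, at 1402 ± 225 CPM for *Sprr1a* and 3560 ± 412 CPM for *Apoe* in the other kept spots.

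Since *Krox20* encodes a DNA-binding factor, the 250 bases before the transcription start of these genes were read from the RefSeq annotation of GRCm38.p6, where 6 of the 10 genes had an entry. *Cst6*, *Col1a1* and *Scd1* were among those with none. The RefSeq start used for *Col1a2* lies 804 bases inside the gene as GENCODE places it, so that window is within the gene by that annotation, and the start used for *Sprr1a* lies 14 bases inside; the other 4 coincide. The sequences of 3 of the higher genes are shown 5′ to 3′ as the windows in which motifs of EGR factors were searched. Capitals mark matches to the AP-1 motif TGANTCA (bound by FOS and JUN proteins) and to TATAAA, both searched on both strands; no match to the EGR motif GCGNGGGCG was found in any of the 6 windows, and 1543 of 32851 promoters of this length (4.70%) hold one.
*Plet1*, chr9:50494275-50494524, plus strand: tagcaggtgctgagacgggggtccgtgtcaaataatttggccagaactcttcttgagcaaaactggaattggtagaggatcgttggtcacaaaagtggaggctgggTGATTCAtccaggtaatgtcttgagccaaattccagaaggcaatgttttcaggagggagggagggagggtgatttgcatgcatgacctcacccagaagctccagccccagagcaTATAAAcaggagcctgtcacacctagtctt
*Sprr1a*, chr3:92485882-92486131, minus strand: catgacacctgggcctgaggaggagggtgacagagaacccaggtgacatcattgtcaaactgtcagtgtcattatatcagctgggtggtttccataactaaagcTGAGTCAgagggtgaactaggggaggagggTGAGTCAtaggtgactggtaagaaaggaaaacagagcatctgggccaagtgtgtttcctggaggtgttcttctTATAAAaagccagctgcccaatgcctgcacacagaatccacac
*Apoe*, chr7:19699189-19699438, minus strand: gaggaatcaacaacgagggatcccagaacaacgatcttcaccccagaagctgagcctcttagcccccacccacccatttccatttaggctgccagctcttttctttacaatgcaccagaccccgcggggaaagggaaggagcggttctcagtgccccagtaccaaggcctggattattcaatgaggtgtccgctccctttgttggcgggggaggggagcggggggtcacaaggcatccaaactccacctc

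An AP-1 match lay at -144 to -138 from the start of *Plet1* and at -146 to -140 and -116 to -110 from that of *Sprr1a*, and *Apoe* had none. Of the 6 windows, 3 held an AP-1 match and 4 a TATAAA, against 6.75% and 12.4% of all promoters. Those shares are not limited to the genes tested or to genes of like level, and 6 windows are too few for a comparison. A match is a description of these letters and not a binding site, and the lack of one covers only this window.

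Among the 6 lower genes were 3 collagen genes, a lipid enzyme gene of sebocytes and the gene of loricrin. *Col1a1*, which encodes the main chain of the collagen of the dermis, had 8004, 5746, 5797 and 5832 CPM in positive and 8909, 6798, 6731 and 7242 CPM in negative spots. It was lower within every slice, with a log2 fold change of -0.23 (SE 0.0274, edgeR adjusted *p* = 4.92e-06), the smallest *p* of all genes. *Col1a2*, its partner chain, had 6700, 7027, 6593 and 5558 CPM in positive and 7833, 7822, 7022 and 6812 CPM in negative spots, a log2 fold change of -0.19 (SE 0.0289, edgeR adjusted *p* = 0.000430). *Col3a1*, a chain of the finer dermal fibres, had 4008, 3940, 2940 and 2809 CPM in positive and 4587, 4613, 3202 and 2940 CPM in negative spots, a log2 fold change of -0.16 (SE 0.0319, edgeR adjusted *p* = 0.0170). The fall in *Col3a1* was smaller than the distance between slices, since replicates 1 and 2 stood above replicates 3 and 4 in both classes.

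*Scd1*, a fatty acid desaturase of sebocytes, had 838, 1153, 1299 and 1050 CPM in positive and 971, 1241, 1520 and 1364 CPM in negative spots. Its log2 fold change was -0.23 (SE 0.0453, edgeR adjusted *p* = 0.0159). *Lor*, which encodes loricrin, the main protein of the cornified envelope, had 329, 336, 230 and 436 CPM in positive and 411, 308, 499 and 636 CPM in negative spots. It was lower in 3 of 4 slices and higher in replicate 2, and its log2 fold change of -0.45 (SE 0.0964, edgeR adjusted *p* = 0.0358) was the largest in size of the 10.

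**Figure D4:**
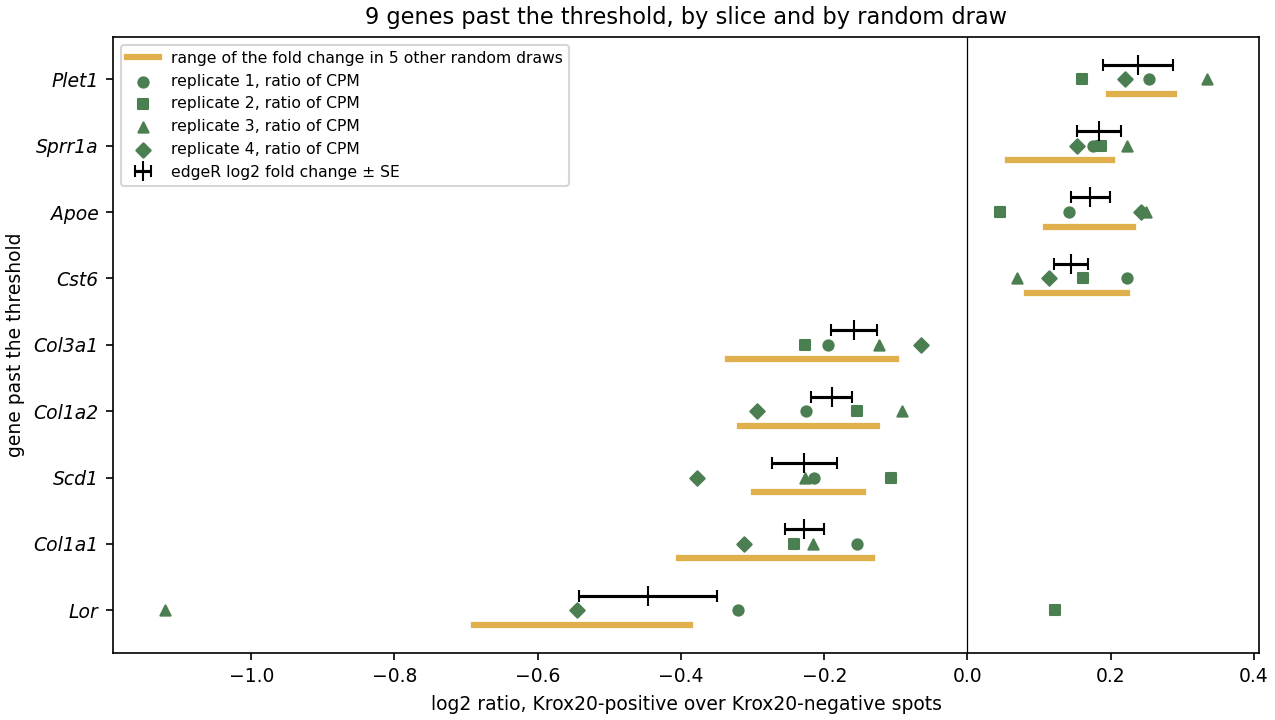
Log2 ratio of *Krox20*-positive over *Krox20*-negative spots for 9 of the 10 genes at an adjusted *p* under 0.05. Green marks are the 4 slices, black crosses the edgeR log2 fold change ± SE and yellow bars the range of the fold change over 5 other random draws of the thinning; all bars lie on the same side of 0 as the crosses, and of the slice values only that of *Lor* in replicate 2 lies on the other side.

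Leaving out 1 slice changed which genes passed. *Col1a1* and *Col1a2* passed with each slice left out in turn. Without replicate 1, *Plet1*, *Cst6*, *Scd1*, *Col3a1* and *Lor* no longer passed, and without replicate 2 *Col3a1* did not. Without replicate 3 those that no longer passed included *Plet1*, *Sprr1a*, *Apoe*, *Scd1*, *Col3a1* and *Lor*, and without replicate 4 it was *Scd1*. Over all genes, 3 passed without replicate 3 and 17 without replicate 2, beside the 10 with all slices.

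Levels were also set out by the number of *Krox20* UMIs. From 0 to 1 to 2 or more UMIs, *Plet1* had 800 ± 56.7, 912 ± 34.0 and 1072 ± 215 CPM, *Cst6* had 17021 ± 1092, 18086 ± 2753 and 21691 ± 2052 CPM, and *Apoe* had 24194 ± 1226, 26268 ± 2629 and 31112 ± 4858 CPM. *Col1a1* did not follow such an order, at 7420 ± 1018, 6263 ± 829 and 6615 ± 2035 CPM. The other genes past the threshold are not set out in this way here. The last class rested on 79 spots over the 4 slices, with 23, 19, 13 and 24 in replicates 1 to 4. These genes were picked by the same split, so the step up or down from 0 UMIs is not a separate result. The step from 1 to 2 or more UMIs uses the same *Krox20* UMIs and was not tested. How often such an order occurs among the other genes was not counted. Whether spots with more *Krox20* UMIs had a higher *Krox20* level was not tested.

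Which genes passed depended on the random draw of the thinning, which decides which spots become positive. Over 6 draws, 52 genes passed in at least 1 and 28 of them in only 1. The 3 genes that passed in all 6 draws were *Col1a1*, *Col1a2* and *Lor*. *Apoe*, *Col3a1* and *Scd1* passed in 5, *Plet1* in 4 and *Cst6* and *Sprr1a* in 3. Genes outside the 10 that passed in 3 or more draws, named after their values were seen, were *Krt77* and *Serpina3j* (lower) and *Cstb* and *Klk10* (higher).

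The set-aside UMIs of the same spots gave a further portion of RNA for the same split. There 3 of 7410 genes passed, all higher in positive spots (0.0405%; 374 genes, 5.05%, at an unadjusted *p* under 0.05): *Apoe* with a log2 fold change of 0.19 (SE 0.0253, edgeR adjusted *p* = 1.7e-06), *Cst6* with 0.17 (SE 0.0280, edgeR adjusted *p* = 0.000252) and *Cstb*, another cysteine protease inhibitor gene, with 0.25 (SE 0.0469, edgeR adjusted *p* = 0.00436). No gene passed as lower. In these UMIs *Col1a1* had a log2 fold change of -0.07 (SE 0.0362, edgeR adjusted *p* = 0.969), *Col1a2* one of -0.05 (edgeR adjusted *p* = 0.975) and *Lor* one of -0.38 (edgeR adjusted *p* = 0.0974).

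When spots of like score were compared, no gene passed. With each slice's spots cut into 3 blocks of equal size by score, 0 of 2912 genes passed in edgeR (163 at an unadjusted *p* under 0.05, 85 higher and 78 lower). The log2 fold change of *Cst6* was then 0.06 (edgeR adjusted *p* = 0.835), that of *Plet1* 0.15 (edgeR adjusted *p* = 0.659), that of *Apoe* 0.11 and that of *Col1a1* -0.17 (edgeR adjusted *p* = 0.365 for both). With blocks by sebaceous and suprabasal content in place of the score, 2 of 2074 genes passed, *Col1a1* at -0.27 (edgeR adjusted *p* = 0.0347) and *Lor* at -0.46 (edgeR adjusted *p* = 0.0358). Blocks of either kind hold fewer UMIs each, so fewer genes were tested. Blocks by position, which do not use the score, also left fewer calls than the reported fit. With each slice cut into 3 strips, 1 of 2815 genes passed along columns and 4 of 2689 along rows. A loss of calls was thus not particular to the blocks by score, and its cause was not tested. *Scd1*, *Lor* and *Sprr1a* belong to the lists that set the content blocks. Their results within those blocks are thus not independent of the blocks.

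Groups of genes were described by how many of their members passed and by the sum of their CPM. The junctional zone and infundibulum list had 2 of 12 tested members higher (*Plet1* and *Cst6*) and 0 lower, with a median log2 fold change of 0.06. Its summed level had a log2 ratio of 0.12 ± 0.04, above 0 in 4 of 4 slices, but *Cst6* makes up most of that sum. Of its other members, *Klk10*, a kallikrein protease gene, had 1204 ± 188 and 1104 ± 192 CPM (log2 fold change 0.13, edgeR adjusted *p* = 0.567). *Lrig1*, a stem cell marker and inhibitor of EGF receptor signalling, had 157, 146, 175 and 186 CPM in positive and 151, 145, 132 and 151 CPM in negative spots. It was higher within 4 of 4 slices but did not pass (log2 fold change 0.18, SE 0.110, edgeR adjusted *p* = 0.879).

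*Krt79* stood level, at 925 ± 102 and 917 ± 77.5 CPM (log2 fold change 0.01, edgeR adjusted *p* = 0.990). *Gata6*, a transcription factor gene of the sebaceous duct, had 12.4 ± 7.404 and 6.26 ± 4.04 CPM, and *Lgr6* had 7.01 ± 4.92 and 8.57 ± 3.38 CPM. Both were below the filter on low counts and were not tested. *Nes*, which encodes nestin, had 19.3 ± 3.35 and 18.7 ± 3.91 CPM (log2 fold change 0.05, edgeR adjusted *p* = 0.992). The bulge list, which marks the stem cell niche further down, had 0 of 9 tested members past the threshold and a log2 ratio of its sum of 0.00 ± 0.04. Bulge genes were not absent from the upper follicle spots. *Sox9* had a mean of 523 CPM in them and 183 CPM in the other kept spots, and *Cd34* had 199 and 88.1 CPM. *Lgr5* (24.1 and 24.1 CPM) and *Nes* (19.3 and 19.2 CPM) stood level between these spots and the rest. The score was thus not shown to set the upper follicle apart from the bulge.

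The relatives and corepressors of *Krox20* did not pass the test. Of the EGR and NAB list, 0 of 4 tested genes passed and *Egr4* had 0 UMIs in both classes. *Egr1* had 219, 188, 275 and 262 CPM in positive and 205, 188, 211 and 245 CPM in negative spots (log2 fold change 0.14, SE 0.0935, edgeR adjusted *p* = 0.890). *Egr3* had 138 ± 21.4 and 157 ± 26.1 CPM (log2 fold change -0.18, edgeR adjusted *p* = 0.879). *Nab2*, whose protein represses EGR factors, had 25.1, 19.98, 26.3 and 31.3 CPM in positive and 38.1, 29.0, 30.9 and 35.7 CPM in negative spots. It was lower within 4 of 4 slices without passing (log2 fold change -0.39, SE 0.239, edgeR adjusted *p* = 0.879), and *Nab1* stood at 47.0 ± 8.29 and 46.9 ± 11.8 CPM.

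Immediate-early genes, which cells switch on within minutes of a stimulus, had 0 of 17 tested members past the threshold. Their median log2 fold change was 0.03, and the log2 ratio of their sum was 0.06 ± 0.02 and above 0 in 4 of 4 slices. Members such as *Fos* (40.2 ± 6.49 and 40.5 ± 12.8 CPM), *Jun* (104 ± 19.8 and 106 ± 9.11 CPM) and *Junb* (130 ± 5.62 and 132 ± 14.6 CPM) had nearly equal means. *Klf6* (73.3 ± 11.3 and 58.0 ± 6.02 CPM, log2 fold change 0.33) and *Ier3* (96.7 ± 16.3 and 79.1 ± 10.5 CPM, log2 fold change 0.29) were higher in positive spots in 4 of 4 slices and did not pass (edgeR adjusted *p* = 0.845 for both). The ion and proton transporter list without the score genes had 0 of 10 tested members past the threshold, with a median of 0.07 and a summed log2 ratio of 0.07 ± 0.05. *Car12*, the gene of a membrane carbonic anhydrase, had the smallest *p* there, at 82.1 ± 12.01 and 65.3 ± 15.2 CPM (log2 fold change 0.36, edgeR adjusted *p* = 0.815). *Atp1b1*, a subunit of the sodium pump, had 880 ± 25.6 and 824 ± 55.4 CPM (log2 fold change 0.10, edgeR adjusted *p* = 0.845). *Foxi1*, *S100g* and *Calb1* had 0 UMIs in both classes.

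The sums of the fibroblast, sebaceous gland and MHC class II lists were lower in positive spots in 4 of 4 slices, though few of their genes passed. All 7 tested fibroblast genes had estimates below 0, 3 passed as lower (the collagens) and the median was -0.16. Their summed level ran from 17290 to 22911 CPM in positive and from 20393 to 26013 CPM in negative spots, with a log2 ratio of -0.18 ± 0.05 that was below 0 in 4 of 4 slices. The 3 collagens that passed make up most of that sum, so its fall largely repeats theirs. *Pdgfra*, a receptor gene that marks fibroblasts, went the other way, with 20.2 ± 2.58 CPM in positive and 14.8 ± 3.82 CPM in negative spots, higher in 4 of 4 slices, but fell below the filter and was not tested. *Dcn* had 544 ± 110 and 564 ± 125 CPM, and *Sparc* had 3053 ± 411 and 3325 ± 480 CPM (edgeR adjusted *p* = 0.143). In such spots, fewer fibroblasts and less collagen RNA per fibroblast cannot be told apart.

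Sebaceous gland genes had 1 of 14 tested members lower (*Scd1*) and 0 higher, 13 of 14 estimates below 0 and a median of -0.22. The sum ran from 2402 to 3172 CPM in positive and from 2647 to 3765 CPM in negative spots, and its log2 ratio of -0.20 ± 0.12 was below 0 in 4 of 4 slices. *Scd1* alone held 1085 CPM of the mean sum of 2835 CPM in positive spots. *Elovl6*, a fatty acid elongase gene, had 257 ± 24.8 and 334 ± 79.3 CPM (log2 fold change -0.36, edgeR adjusted *p* = 0.116), and the defining gene *Pparg* was near 0 in both classes at 5.15 ± 3.44 and 4.16 ± 2.13 CPM. The cholesterol synthesis genes listed here had 0 of 13 tested members past the threshold, a median of -0.01 and a summed log2 ratio of -0.08 ± 0.12 that was below 0 in 3 of 4 slices. The most abundant were *Msmo1*, a sterol oxidase gene, at 195 ± 22.8 and 183 ± 22.1 CPM, and *Hmgcs1*, which acts early in the pathway, at 159 ± 17.2 and 182 ± 24.5 CPM (log2 fold change -0.19, edgeR adjusted *p* = 0.879).

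MHC class II immune cell genes had 0 of 5 tested members past the threshold, although all 5 estimates were below 0. The median was -0.29, and the summed log2 ratio was -0.32 ± 0.16 and below 0 in 4 of 4 slices, from 512 to 766 CPM in positive and from 714 to 1021 CPM in negative spots. *Cd74*, the invariant chain gene, had 271, 198, 175 and 233 CPM in positive and 291, 289, 226 and 269 CPM in negative spots (log2 fold change -0.29, SE 0.0918, edgeR adjusted *p* = 0.498). The Langerhans cell gene *Cd207* was near 0, at 2.94 ± 3.38 and 2.55 ± 1.26 CPM.

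Suprabasal epidermis genes split, with 1 of 15 higher (*Sprr1a*), 1 lower (*Lor*) and a summed log2 ratio of 0.02 ± 0.08. *Krt10*, the early differentiation keratin, had 254 ± 65.1 and 317 ± 103 CPM (log2 fold change -0.29, edgeR adjusted *p* = 0.522). Basal epidermis genes had 0 of 8 past the threshold and a summed log2 ratio of 0.03 ± 0.07. Inner root sheath genes had 0 of 8 past it, with 6 estimates below 0 and a summed log2 ratio of -0.08 ± 0.06 that was below 0 in 4 of 4 slices. Outer root sheath and companion layer genes had 0 of 7 and 0.05 ± 0.01.

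The myelinating Schwann cell list was included because *Krox20* is known from these cells. It had 0 of 3 tested members past the threshold, and its summed log2 ratio was 0.18 ± 0.09, above 0 in 4 of 4 slices. Its most abundant genes were *Pmp22*, at 147 ± 6.17 and 132 ± 7.96 CPM, and *Mbp*, which encodes myelin basic protein, at 61.9 ± 19.6 and 50.8 ± 16.1 CPM (log2 fold change 0.28, edgeR adjusted *p* = 0.879). The defining genes *Sox10* (4.63 ± 2.44 and 7.16 ± 2.41 CPM) and *Prx* (12.1 ± 4.19 and 11.7 ± 3.84 CPM) were low. Whether nerve RNA took part in the split was not tested.

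No member of the other lists passed. The summed log2 ratio was 0.13 ± 0.02 for melanocytes and 0.05 ± 0.02 for stress and heat shock genes, both above 0 in 4 of 4 slices. It was 0.05 ± 0.13 for Wnt and Bmp, 0.03 ± 0.13 for Notch, -0.12 ± 0.32 for hedgehog, -0.06 ± 0.23 for the cell cycle and -0.05 ± 0.08 for matrix and hair shaft. Adipocyte (-0.01 ± 0.22), endothelium (0.03 ± 0.14), smooth muscle (-0.18 ± 0.36) and skeletal muscle genes (-0.19 ± 0.68) spread around 0, the last with -1.16 in replicate 4.

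**Figure D5:**
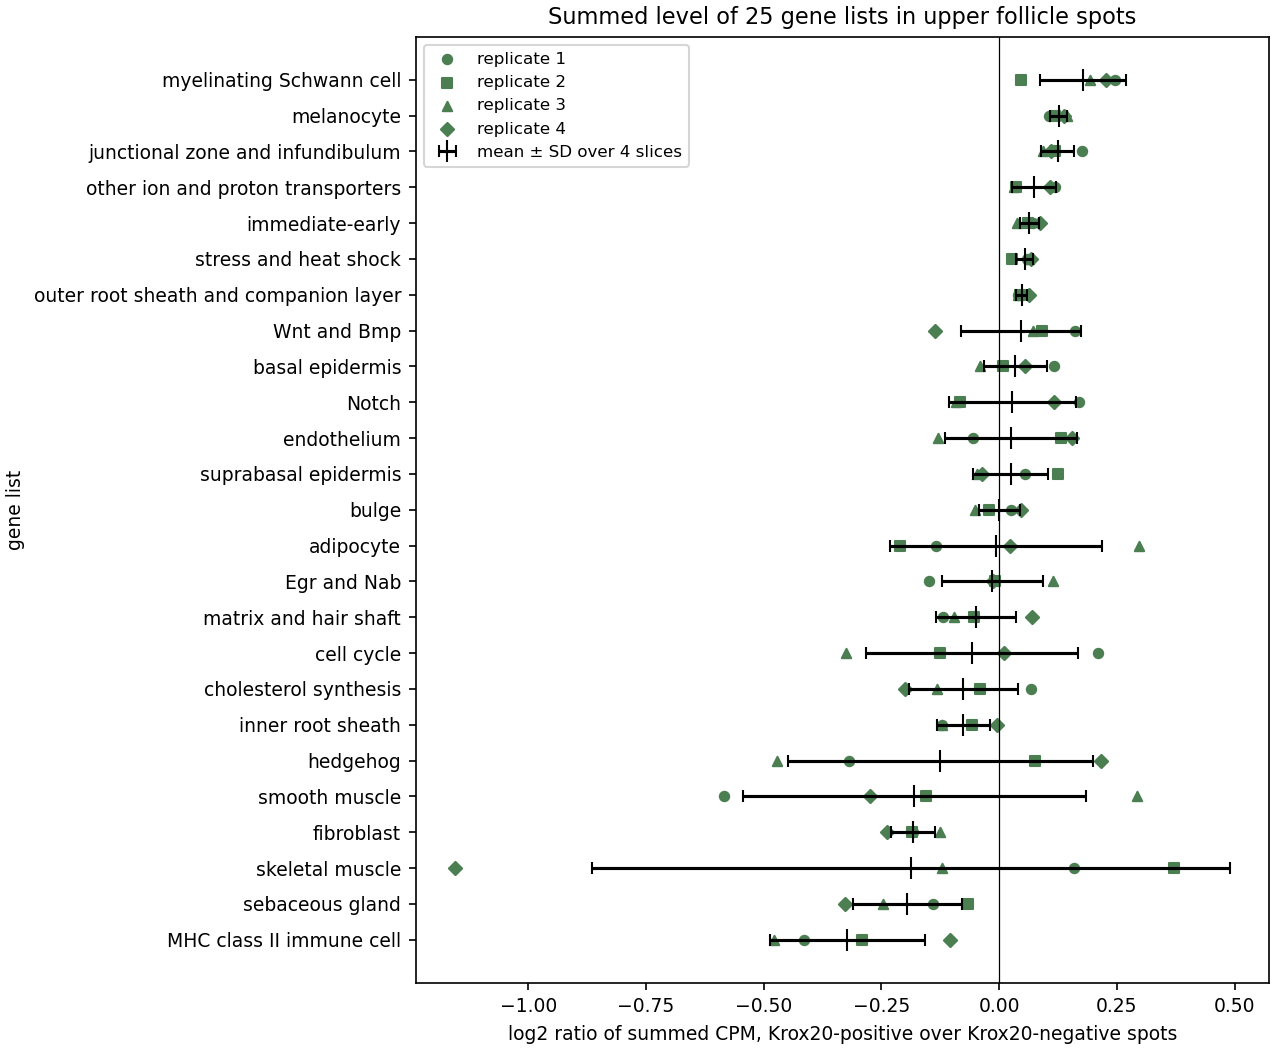
Log2 ratio of the summed CPM of each of 25 gene lists, *Krox20*-positive over *Krox20*-negative spots. Marks are the 4 slices and black crosses the mean ± SD. Fibroblast (-0.18), sebaceous gland (-0.20), MHC class II (-0.32) and inner root sheath (-0.08) sums lie below 0 in 4 of 4 slices. Junctional zone and infundibulum sums (0.12) lie above 0 in 4 of 4. So do those of immediate-early, ion and proton transporter, outer root sheath and companion layer, myelinating Schwann cell, melanocyte and stress and heat shock genes.

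The same split was made in the next 15% of spots by score (801 thinned spots), which are the spots most like the upper follicle spots. There, 5 of 6643 genes passed (0.0753%), 0 higher and 5 lower: *Lor*, *Krtdap*, *Krt10*, *Krt77* and *Krtap6-3*. The first 4 belong to differentiated epidermis, and *Krtap6-3* is a hair shaft gene. *Lor* had a log2 fold change of -0.31 there (SE 0.0636, edgeR adjusted *p* = 0.0120) beside -0.45 in the upper follicle spots, and *Col1a1* had -0.15 (edgeR adjusted *p* = 0.102) beside -0.23. *Apoe* had -0.04 (edgeR adjusted *p* = 0.974), *Cst6* 0.01 (edgeR adjusted *p* = 0.999), *Sprr1a* -0.01 (edgeR adjusted *p* = 0.996) and *Plet1* 0.16 (edgeR adjusted *p* = 0.909).

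The difference between the regions was tested as an interaction. It passed for 0 of 7509 genes in edgeR, with 365 (4.86%) at an unadjusted *p* under 0.05. The estimate for *Apoe* was 0.21 (SE 0.0550, edgeR adjusted *p* = 0.505), that for *Sprr1a* 0.20 (SE 0.0604) and that for *Cst6* 0.14 (SE 0.0462; edgeR adjusted *p* = 0.825 for both). A lack of calls does not show that the regions are alike. With all 4 slices, no gene's difference could be called particular to the upper follicle spots by this test. With 1 slice left out this changed for a few genes. Without replicate 2 the interaction passed for 4 genes, *Apoe* at 0.34 (SE 0.0505, edgeR adjusted *p* = 2.88e-07) and, below 0, the skeletal muscle genes *Acta1*, *Tnni2* and *Myh4*. Without replicate 1 it passed for 2, the immunoglobulin genes *Igkc* and *Igha*.

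The reporter was rarely captured, with 5 *tdTomato* UMIs in positive and 5 in negative spots after thinning, too few to compare.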

How the data were processed

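Visium libraries of 4 slices of P38 dorsal skin were analyzed. The authors deposited UMI counts per gene and spot for spots over tissue, made with Space Ranger 2.0.1 (matrix header) on mm10 (submitters' processing notes) for 32286 features, without normalization. Depth was between 19393026 and 26910422 UMIs per slice, and intervals cover counting error only.

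Spots were chosen, thinned (seed 1) and split as described above. UMIs were summed per slice and class. The sums went into the quasi-likelihood test of edgeR 4.0.16 under R 4.3.3, with filterByExpr, TMM and Benjamini-Hochberg adjustment over all genes fitted (threshold 0.05), with the slice as a block because both sums of a slice come from the same sections. The step was tested on simulated data with 200 genes changed. It recovered 36% of changes of 0.5 on the log2 scale (7.69% of calls false) and 82% of changes of 1 (2.96% false). Genes past the threshold differed by at most 0.45, and changes that small were not simulated. A gene that did not pass may therefore still differ. Single values were compared by exact sign-flip tests in scipy 1.17.1. Epidermis-rich spots are the top 15% by the same score over *Lor*, *Krt10*, *Krt1*, *Krtdap* and *Sbsn*. Blocks by content split spots at the slice medians of the sebaceous and suprabasal list scores.

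The members and the 25 gene lists were chosen with earlier results of these data known. Named genes are those past the threshold that moved the same way in 4 of 4 slices at 20 CPM or more (up to 12 per direction), the EGR and NAB genes, the score genes, *Lrig1*, *Nes*, *Krt79*, *Gata6*, *Lgr6*, *Plet1* and, from each list, the members past the threshold or the 2 most abundant; other members are named as examples, chosen after their values were seen. *Cyr61* is listed as *Ccn1*. Some genes, 1 of them past the threshold, are not reported here and were taken off the lists; *Krt85* and *CreERT* were not analysed here, and *Ddit3*, which has 2 identifiers, was not used. No per-sample values were left out. Promoter sequences are from RefSeq on GRCm38.p6. Alternatives covered the share of spots, thinning, definitions of the classes, DESeq2 1.42.0, normalization, the filter on low counts, the block, position, score and content blocks and each slice left out.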

Additional observations from a re-analysis of the deposited data

Results flagged for a closer look

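In 2 of 96 groups of 4 slices examined, 1 slice stood far from the others, and chance alone gives such a gap in about 1 group in 20. The log2 ratio of *Krt79* was -0.12 in replicate 2 and between 0.04 and 0.06 in the other slices. The difference in distance to the nearest epidermis-rich spot was 0.0417 steps in replicate 3 and between -0.0490 and -0.0374 steps in the others.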

How the results depend on the processing

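Of the genes tested, 4 passed as higher and 6 as lower in the reported fit. The counts (higher, then lower) were 4 and 10 with the top 10% of spots, 15 and 38 with the top 20%, 7 and 13 with thinning to 8000 UMIs and 17 and 27 without thinning. In the other random draws they were 0 and 17, 10 and 11, 8 and 17, 6 and 7, and 7 and 13. With 2 or more *Krox20* UMIs as positive they were 3 and 1, without negative spots that had held a *Krox20* UMI before thinning 8 and 14, in the set-aside UMIs 3 and 0, and without a filter on low counts 4 and 11. DESeq2 gave 0 and 1 (30 genes at an unadjusted p under 0.05). Strips along columns gave 0 and 1, strips along rows 2 and 2, 3 blocks by score 0 and 0 (85 and 78 at an unadjusted p under 0.05), and sebaceous and suprabasal content 0 and 2. No replicate block gave 0 and 0, with 100 and 117 genes at an unadjusted p under 0.05. Thinning to 4000 UMIs, no minimum of genes per spot and library size alone stayed within 1.5 times the reported counts. Leaving out 1 slice gave 1 to 5 higher and 2 to 13 lower genes, with 1 and 2 without replicate 3 and 4 and 13 without replicate 2. The cause of these changes was not tested.

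The interaction passed for 0 genes as reported, for 1 without a filter on low counts and for 0 to 4 with 1 slice left out (2 without replicate 1 and 4 without replicate 2). With 1 slice left out, the log2 ratio of *Krox20* in the set-aside UMIs ranged from -0.07 to 0.17, that in neighbouring spots from -0.11 to 0.00 and the difference in distance from -0.04 to -0.01 steps. The 5 other draws for the set-aside UMIs were chosen after seeing the data.

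The 10 genes at the threshold kept their direction in 25 of 25 settings each that used thinned or all UMIs. They were picked by the reported fit, and these settings reuse mostly the same spots and slices. A like direction is thus not separate support, and no share over all genes was set beside it. Over these settings and the set-aside UMIs, the calls were kept in 151 results and lost in 109, and *Col1a1* was called in 22 of 25 settings and *Col1a2* in 19. Among the other named genes, 19 results newly passed in the reported direction and 1 in the opposite one, *Cfd* in random draw 3 at -0.30 beside 0.09 as reported. Estimates that did not pass could change sign too, as for *Acta2*, at -0.13 as reported and 0.21 in random draw 4. The thinned depth of 5500 UMIs per spot limits what can be seen: positive spots mostly rest on 1 molecule, and genes below the filter were not compared.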

Other observations

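Genes outside the named rule passed in several random draws of the thinning, as given above for *Krt77*, *Serpina3j*, *Cstb* and *Klk10*. Over the 6 draws, *Krt77* had log2 fold changes from -0.52 to -0.19, *Serpina3j* from -0.65 to -0.28, *Cstb* from 0.15 to 0.24 and *Klk10* from 0.13 to 0.24, each in the same direction in every draw. In 2 draws *Hba-a1*, a haemoglobin gene, passed as higher, and its log2 fold change ran from -0.16 to 0.46.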
